A study of Homo sapiens with 10 samples.

Results

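NRF2 target genes of the antioxidant response were followed across RNA-seq libraries of H1 human embryonic stem cells after knockdown of SMARCA4, MAFK, E2F6 or KDM1A. The 8 members were NQO1, HMOX1, GCLM, GCLC, TXNRD1, SRXN1, PIR and ME1, chosen as the rows of the table of single libraries that carry these names. Each name matched 1 row, so 8 of the 14785 rows were members, of which 13808 were genes and 977 were other features. H1 is an established pluripotent line derived from an embryo, and its genotype is labelled as wild type in each group. Cells were infected with packaged shRNA virus and selected with puromycin, so the controls carried a vector and underwent selection as well. The groups were the control shLUC (an shRNA against luciferase), shSMARCA4, shMAFK, shE2F6 and shKDM1A. Each group had 2 libraries, described as biological duplicates, so 10 libraries were compared. The number of hairpins per target is not given in the sources used here.

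NRF2, encoded by NFE2L2, is a transcription factor that KEAP1 normally hands over for degradation. Oxidants and electrophiles modify KEAP1, and NRF2 then accumulates, pairs with a small MAF protein (MAFF, MAFG or MAFK) and binds antioxidant response elements. BACH1 pairs with the same small MAF proteins and represses from the same elements, HMOX1 being its best known target. MAFK, a knockdown target here, is therefore a partner of both the activator and the repressor. The targets make glutathione, reduce thioredoxin and peroxiredoxins, detoxify quinones and heme, and supply NADPH.

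Matches to the core letters of the element differ among the promoter windows of the members. They are shown as letters that these windows have, or lack, in common. The core was searched as TGACNNNGC and as TGAGNNNGC on both strands, in RefSeq windows from 250 bases before to 50 bases after each annotated start (GRCh38.p14). Of the 8 members, 7 had a window, and TXNRD1 had 2 starts. HMOX1 was not in the window table. TGACNNNGC lay in the windows of PIR, ME1, GCLM and TXNRD1, and the window of NQO1 held TGAGNNNGC only. Sites are written 5′ to 3′ on the strand that carries the core, with the core in capitals and 10 reference bases on either side, and all matches found are shown.
PIR, chrX:15493289-15493317, plus strand: agcctcaccgTGACTCAGCgcttcgcggc
ME1, chr6:83431170-83431198, minus strand: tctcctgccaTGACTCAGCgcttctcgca
ME1, chr6:83431022-83431050, plus strand: gctgctggggTGACGGTGCtgactgcagc
GCLM, chr1:93909446-93909474, plus strand: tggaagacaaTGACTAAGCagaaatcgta
TXNRD1, chr12:104215670-104215698, plus strand: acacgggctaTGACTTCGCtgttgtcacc
TXNRD1, chr12:104215761-104215789, minus strand: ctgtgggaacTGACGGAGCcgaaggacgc
TXNRD1, chr12:104286920-104286948, minus strand: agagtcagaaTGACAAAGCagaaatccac
TXNRD1, chr12:104286824-104286852, plus strand: ggggcggctaTGAGCAGGCagaggatgtg
GCLM, chr1:93909420-93909448, plus strand: gattccaaacTGAGGGAGCtgtttcctgg
NQO1, chr16:69726661-69726689, plus strand: cggaggatgcTGAGGCTGCagctccagga
PIR and ME1 carried the same core, TGACTCAGC, which was present in 0.6% of the 35116 windows searched. It began 26 bases after the start of PIR and 137 bases before that of ME1. That core also contains TGANTCA, the letters bound by AP-1 factors, found in 7.7% of windows. TGACNNNGC was present in 13.3% of windows and TGAGNNNGC in 18.3%, and 29.1% held at least 1 of them. The windows of SRXN1 and GCLC held neither, which says only that these letters are not in these windows. A match is a description of letters and was not measured here as a bound site. Bases outside these windows were not searched for any member, so an element of a member may lie elsewhere.

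Values are whole-number normalized tag counts, in which every library had the same median (594) and totals ran from 22836548 to 22855295, so that the sequencing depth is unknown. They are not divided by gene length, and levels are compared here within a gene. The exception is SRXN1 against AL121758.1, a gene that shares its last exon. Sums over marker genes are led by the genes with high values. The targeted genes had lower mean levels in their own knockdowns: 1042.5 against 8230 normalized tag counts for SMARCA4, 149 against 250 for MAFK, 320 against 522 for E2F6 and 2584.5 against 6134.5 for KDM1A. The fall passed the test for SMARCA4 alone (limma, adjusted p = 8.55e-05), and the 2 shMAFK libraries were uneven, with 82 and 216 for MAFK. Of 14 pluripotent cell markers all were in the table, and their summed level was 192545 to 201696 in shLUC and 165065 to 187851 in shSMARCA4. Of 12 mesendoderm markers 4 were in the table (MIXL1, EOMES, FOXA2 and CER1), and their sum was 1198 to 7385 in shSMARCA4 against 71 to 82 in shLUC. KRT7, the 1 trophoblast marker of 8 in the table, stood at 30 to 44 in shSMARCA4 and 218 to 296 in shLUC. NES and MAP2, the 2 neuroectoderm markers of 8 in the table, summed to 3909 to 6609 in shSMARCA4 and 5611 to 6512 in shLUC. The part of these marker shifts in the results for shSMARCA4 was not tested. In such bulk libraries, fewer cells of a type and less RNA per cell cannot be told apart.

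Loss of SMARCA4, the ATPase of the BAF chromatin remodeller, was the 1 knockdown in which members passed the test against shLUC, and they moved in opposite directions. PIR rose 2.11-fold and SRXN1 fell to 58.2% of the control mean, while HMOX1 stood 2.17-fold above the control without passing. The other 5 members did not pass. So 2 of 8 members passed (limma, adjusted p under 0.05 over all rows), 1 higher and 1 lower. Over all rows 4.18% passed in shSMARCA4, 1.67% higher and 2.51% lower. No member passed in shMAFK, shE2F6 or shKDM1A, in which 0.0135%, 0% and 0.0271% of all rows passed. At an unadjusted p under 0.05 the members numbered 4 in shSMARCA4 (16.3% of all rows), 4 in shE2F6 (5.09%), 1 in shMAFK (8.77%) and 0 in shKDM1A (11.5%). The median log2 change of the 8 members was highest in shE2F6, at 0.37, followed by shKDM1A (0.24), shSMARCA4 (0.15) and shMAFK (0.08), and that of all rows lay between -0.018 and 0.007.

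**Figure D1:**
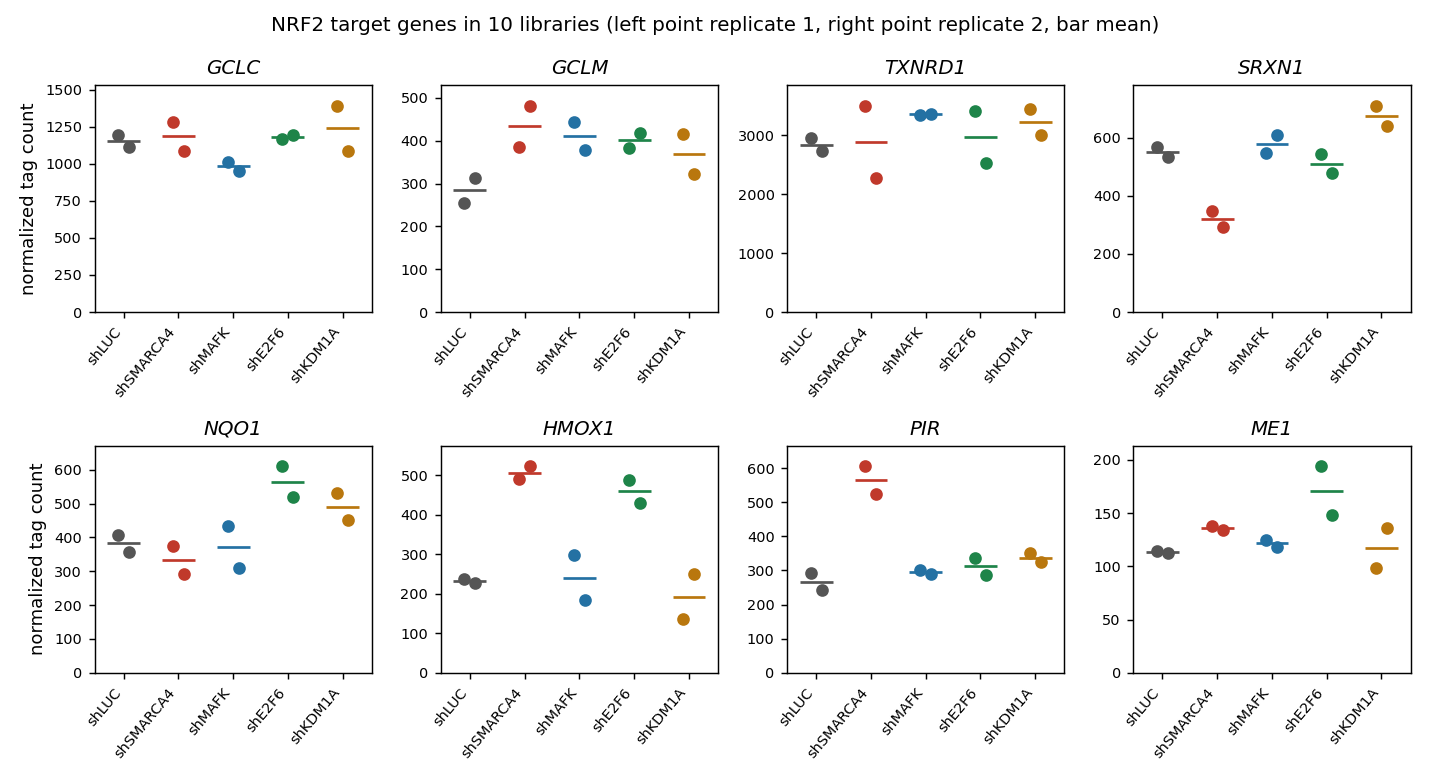
Normalized tag counts of the 8 members in each of the 10 libraries, 1 panel per gene and 2 points per group (replicate 1 at left), with a bar at the group mean. PIR at 605 and 524 in shSMARCA4 lies above its other 8 values, and SRXN1 at 347 and 294 lies below its other 8 values.

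Without a test, overlap of the 2 libraries with the 2 controls shows how loosely small groups separate. In shSMARCA4, 5 members lay outside the control range, 4 above it (HMOX1, GCLM, PIR and ME1) and SRXN1 below it, and 51.0% of all rows lay outside it. In shMAFK 4 members did so against 49.1% of all rows, GCLM, TXNRD1 and ME1 above the controls and GCLC below them. In shE2F6 the 4 members NQO1, HMOX1, GCLM and ME1 lay above the controls, and 40.7% of all rows did not overlap. In shKDM1A 5 members lay above them (NQO1, GCLM, TXNRD1, SRXN1 and PIR), and 38.8% of all rows did not overlap. Shares of all rows outside the controls in several knockdowns at once were not counted.

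GCLC and GCLM encode the catalytic and the modifier subunit of glutamate-cysteine ligase, the enzyme of the first and rate-limiting step of glutathione synthesis. GCLC lies on chr6:53497341-53616970, minus strand, and GCLM on chr1:93885205-93909456, minus strand (GENCODE v29, GRCh38). GCLM stood at 254 and 314 normalized tag counts in shLUC, 385 and 482 in shSMARCA4, 443 and 378 in shMAFK, 416 and 322 in shKDM1A, and 384 and 419 in shE2F6. All 8 knockdown libraries thus lay above both controls, the lowest by a margin of 322 to 314, and the 4 comparisons share those controls. The share of all rows with this pattern was not counted. The log2 changes of GCLM were 0.61 (SE 0.20) in shSMARCA4, 0.53 in shMAFK, 0.37 in shKDM1A and 0.50 in shE2F6, and none passed (limma, adjusted p = 0.153, 0.467, 0.478 and 0.949). The 4 knockdowns were not told apart for GCLM by the F test across them (limma, adjusted p = 0.794).

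The catalytic subunit varied least of the members, its highest library being 1.46-fold above its lowest. GCLC stood at 1194 and 1115 in shLUC, 1282 and 1087 in shSMARCA4, 1012 and 951 in shMAFK, 1392 and 1087 in shKDM1A, and 1166 and 1192 in shE2F6. The shMAFK libraries were the lowest pair, below both controls, and the other groups overlapped the controls. In shMAFK the log2 change of GCLC was -0.23, with a 95% interval from -0.62 to 0.15 (limma, adjusted p = 0.817). In shSMARCA4 its interval ran from -0.35 to 0.42 around a log2 change of 0.03.

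TXNRD1 and SRXN1 belong to the thioredoxin arm. TXNRD1, the cytosolic thioredoxin reductase, passes electrons from NADPH to thioredoxin, and sulfiredoxin, the product of SRXN1, restores peroxiredoxins that peroxide has overoxidized. TXNRD1 (chr12:104215779-104350305, plus strand) stood at 2953 and 2727 in shLUC, 3507 and 2273 in shSMARCA4, 3348 and 3367 in shMAFK, 3452 and 3008 in shKDM1A, and 3414 and 2530 in shE2F6. In shSMARCA4 and in shE2F6, 1 library lay above and 1 below both controls. None of the 4 changes passed, and in shSMARCA4 the 95% interval of the log2 change ran from -0.52 to 0.51. The gene overlaps EID3 on the same strand, whose row is separate in the table.

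SRXN1 lies on chr20:646615-653370, minus strand. It stood at 568 and 534 normalized tag counts in shLUC, a mean of 551 ± 24.0 (SD, n = 2). The shSMARCA4 libraries gave 347 and 294, a mean of 320.5 ± 37.5 (SD, n = 2), and both lay below each of the other 8 libraries. The other knockdowns gave 548 and 608 (shMAFK), 542 and 478 (shE2F6), and 710 and 639 (shKDM1A). Both shKDM1A libraries lay above the controls, at 122% of the control mean. In shSMARCA4 the log2 change was -0.78 (SE 0.16, 95% interval -1.14 to -0.43, limma adjusted p = 0.027), a 1.72-fold fall. It was 0.29 in shKDM1A, 0.07 in shMAFK and -0.11 in shE2F6, none of which passed. The call in shSMARCA4 was lost on leaving out either library of shLUC, shSMARCA4 or shMAFK (adjusted p from 0.0558 to 0.196).

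The value of SRXN1 could not be separated from that of a second annotated gene. AL121758.1 (ENSG00000270299) runs on the same strand and shares the last exon of SRXN1 (chr20:646615-648917), and the shared 2292 bases make up 85.0% of the exon bases of SRXN1. Its row read 562 and 528 in shLUC, 343 and 302 in shSMARCA4, 537 and 599 in shMAFK, 682 and 630 in shKDM1A, and 536 and 484 in shE2F6. In each library it differed from SRXN1 by at most 3.94% of the SRXN1 value. Its log2 change in shSMARCA4 was -0.76 (SE 0.15, limma adjusted p = 0.0257), and this call too was lost on leaving out either library of shLUC, shSMARCA4 or shMAFK (adjusted p from 0.0533 to 0.193). Reads of the 2 rows cannot be told apart, and the fall belongs to either or both.

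**Figure D2:**
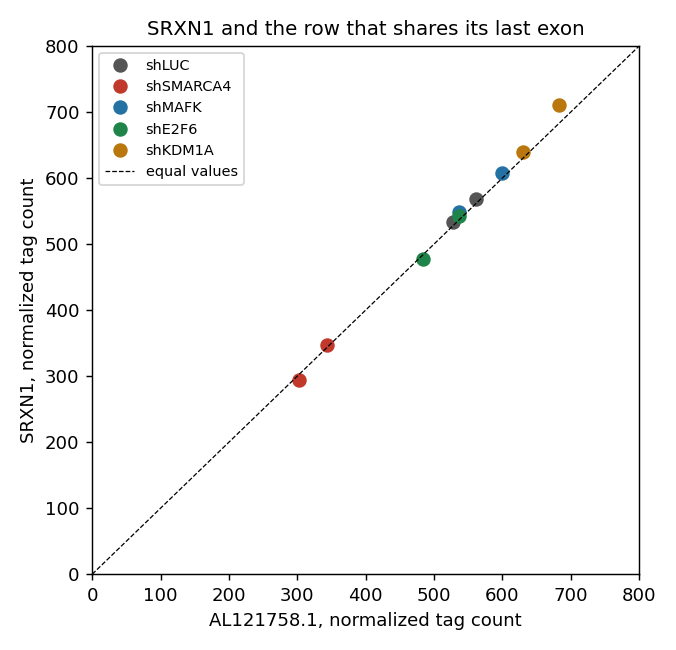
Normalized tag counts of SRXN1 and of AL121758.1, the gene that shares its last exon, plotted against each other, 1 point per library (SRXN1 on the vertical axis), with a dashed line at equal values. The 10 points lie close to the line, SRXN1 minus AL121758.1 ranging from -8 to 28.

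NQO1 and HMOX1 deal with quinones and heme. NQO1 reduces quinones with NADPH or NADH, and HMOX1, the inducible heme oxygenase, splits heme into biliverdin, iron and carbon monoxide. NQO1 (chr16:69706996-69726951, minus strand) stood at 408 and 356 in shLUC, 376 and 292 in shSMARCA4, 435 and 311 in shMAFK, 530 and 450 in shKDM1A, and 610 and 518 in shE2F6. All 4 libraries of shE2F6 and shKDM1A lay above the controls, and those of shSMARCA4 and shMAFK overlapped them. The log2 change was 0.56 (SE 0.21) in shE2F6 and 0.36 in shKDM1A, and neither passed (limma, adjusted p = 0.939 and 0.508). Between shSMARCA4 and shE2F6 the log2 difference was -0.76 (limma, adjusted p = 0.0981).

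HMOX1 lies on chr22:35380361-35394214, plus strand, and no annotated gene overlaps it. Its highest library was 3.84-fold above its lowest, the widest range of the 8 members. The shSMARCA4 libraries stood at 490 and 522 normalized tag counts and the shE2F6 libraries at 488 and 430. The shLUC libraries stood at 238 and 228, those of shMAFK at 297 and 183, and those of shKDM1A at 136 and 249. In order of the means, shSMARCA4 (506 ± 22.6, SD, n = 2) and shE2F6 (459 ± 41.0) came first, nearly touching at 490 against 488. They were followed by shMAFK (240 ± 80.6), shLUC (233 ± 7.07) and shKDM1A (192.5 ± 79.9), which overlapped with each other. All 4 libraries of the first 2 groups lay above all 6 of the others. Those groups were picked by their means in these same values, so the split is not a test. The share of all rows that split in this way was not counted.

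Against shLUC, the log2 change of HMOX1 was 1.12 in shSMARCA4 (SE 0.30, 95% interval 0.44 to 1.79, limma adjusted p = 0.0813). It was 0.97 in shE2F6, a 1.96-fold difference (95% interval 0.30 to 1.65, limma adjusted p = 0.884). Neither passed, and the 2 knockdowns differed by 0.14 (95% interval -0.53 to 0.82, limma adjusted p = 0.923). In shSMARCA4 the call was gained without shKDM1A replicate 1 (limma, adjusted p = 0.0169), without its replicate 2 (0.0167), without both (0.0168), with the spread weighted by group (0.0167) and with shSMARCA4 and shLUC alone (0.00813). No setting gave it in shE2F6, in which the adjusted p ran from 0.184 to 1. In shMAFK, the knockdown of a partner of BACH1, the log2 change was 0.00, with a 95% interval from -0.67 to 0.67. HMOX1 lay on either side of the controls there, at 297 and 183. MAFK itself stood at 82 and 216 in these libraries against 212 and 288 in shLUC, a fall that did not pass.

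PIR encodes pirin, an iron-binding nuclear protein and an NRF2 target, and lies on chrX:15384799-15493564, minus strand. It stood at 292 and 242 normalized tag counts in shLUC, a mean of 267 ± 35.4 (SD, n = 2). The shSMARCA4 libraries gave 605 and 524, a mean of 564.5 ± 57.3 (SD, n = 2), and the other knockdowns 302 and 289 (shMAFK), 336 and 288 (shE2F6), and 350 and 324 (shKDM1A). Both shSMARCA4 libraries thus lay above each of the other 8, which ranged from 242 to 350. The log2 change in shSMARCA4 was 1.08 (SE 0.17, 95% interval 0.70 to 1.46, limma adjusted p = 0.00976). It was 0.34 in shKDM1A, 0.23 in shE2F6 and 0.15 in shMAFK, none of which passed (limma, adjusted p = 0.453, 1 and 0.917). The call in shSMARCA4 was lost without shLUC replicate 2 (limma, adjusted p = 0.113) or without shSMARCA4 replicate 1 (0.0736). On the opposite strand the locus overlaps BMX, which has no row in the table.

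ME1, the cytosolic malic enzyme, makes NADPH while turning malate into pyruvate, and lies on chr6:83210389-83431071, minus strand. It stood at 114 and 113 normalized tag counts in shLUC, 138 and 134 in shSMARCA4, 125 and 118 in shMAFK, 98 and 136 in shKDM1A, and 194 and 148 in shE2F6. The 6 libraries of shSMARCA4, shMAFK and shE2F6 lay above both controls, and shKDM1A had 1 library on either side. The log2 change was 0.57 in shE2F6, a 1.49-fold difference (limma, adjusted p = 0.956), and 0.26 in shSMARCA4 (limma, adjusted p = 0.681). The window of ME1 holds the same core letters as that of PIR, shown above, and the change of ME1 in shSMARCA4 did not pass the test that PIR passed.

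**Figure D3:**
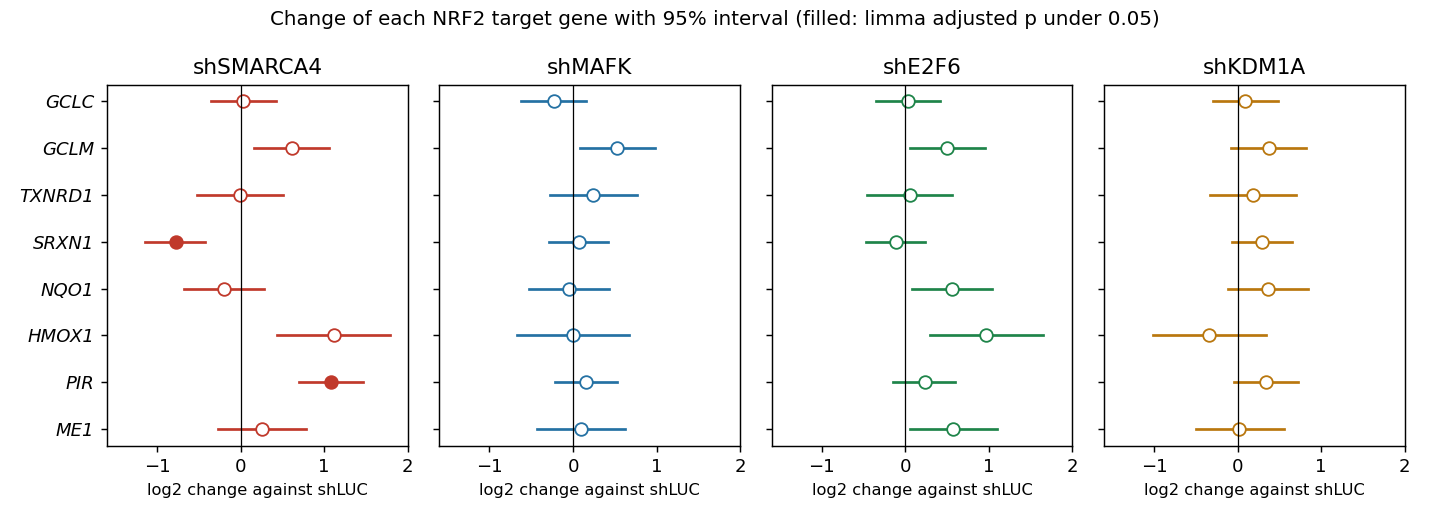
Log2 change of each of the 8 members against shLUC in the 4 knockdowns, on the log2(value + 1) scale, with 95% intervals from limma. PIR at 1.08 and SRXN1 at -0.78 in shSMARCA4 are the changes that passed, and HMOX1 in shSMARCA4 is at 1.12.

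The knockdowns were also compared with each other. By the F test across the 4 knockdowns, SRXN1 (limma, adjusted p = 0.0162), PIR (0.0292) and HMOX1 (0.0372) differed, so 3 of 8 members passed against 6.64% of all rows. The other 5 did not pass, with NQO1 nearest to the threshold (limma, adjusted p = 0.132). HMOX1 lost this call on leaving out any library other than shMAFK replicate 1 or those of shKDM1A, PIR on leaving out any other than those of shKDM1A, and SRXN1 on leaving out shMAFK replicate 2 or either shSMARCA4 library. HMOX1 also lost it in a fit without the mean-variance trend and with replicate number as a block.

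PIR was higher in shSMARCA4 than in each of the other knockdowns, by 0.93 on the log2 scale against shMAFK, 0.85 against shE2F6 and 0.74 against shKDM1A (limma, adjusted p = 0.0117, 0.0271 and 0.0328). Of all rows, 7.76%, 3.55% and 6.87% passed in these 3 contrasts. SRXN1 was lower in shSMARCA4 than in shMAFK by a log2 difference of -0.85 and than in shKDM1A by -1.07 (limma, adjusted p = 0.013 and 0.00534). Against shE2F6 its difference of -0.67 did not pass (limma, adjusted p = 0.0539). HMOX1 was higher in shSMARCA4 than in shKDM1A by 1.45 (limma, adjusted p = 0.0237), and its difference of 1.11 from shMAFK did not pass (limma, adjusted p = 0.0552).

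These contrasts rest on few libraries, and most calls were lost on leaving out 1 library. The call of SRXN1 between shSMARCA4 and shKDM1A was not, its log2 difference staying between -1.19 and -0.95. The difference of PIR from shMAFK was lost without either shMAFK library or shSMARCA4 replicate 1 (adjusted p up to 0.0996), that from shE2F6 without any library other than those of shKDM1A (up to 0.191), and that from shKDM1A without any library other than shKDM1A replicate 2 (up to 0.17). The difference of SRXN1 from shMAFK was lost without either shMAFK library or shSMARCA4 replicate 2 (up to 0.119). The difference of SRXN1 from shE2F6 passed without either shKDM1A library (0.0259 and 0.0257), and that of HMOX1 from shMAFK likewise (0.0116 and 0.0115). The difference of HMOX1 from shKDM1A was lost without shKDM1A replicate 1 or either shSMARCA4 library (up to 0.128). No member passed in the contrasts among shMAFK, shE2F6 and shKDM1A, the largest difference being 1.31 for HMOX1 between shE2F6 and shKDM1A (limma, adjusted p = 0.131).

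The genes that control the pathway came from a list of 16, of which 14 were in the table. None of the 14 passed in any of the 4 knockdowns, and at an unadjusted p under 0.05 there were 2, 3, 0 and 3 in shSMARCA4, shMAFK, shE2F6 and shKDM1A. Of all rows, 16.3%, 8.77%, 5.09% and 11.5% were under 0.05 in the same order. NFE2L2 stood at 504 and 638 in shLUC and between 551 and 752 in the 8 knockdown libraries. KEAP1 stood at 1368 and 1340 in shLUC and between 1020 and 1631 in the knockdowns. BACH1 stood at 897 and 987 in shLUC and between 856 and 1206 in the knockdowns. The log2 changes of these 3 genes lay between -0.14 and 0.28 over the 4 knockdowns. MAFG, another small MAF gene, stood at 1068 and 1444 in shMAFK and 680 and 1040 in shLUC, and its log2 change of 0.56 did not pass (limma, adjusted p = 0.701). MAFK itself had a log2 change of -0.89 in shMAFK (SE 0.40, limma, adjusted p = 0.572). SQSTM1, a KEAP1-binding autophagy receptor on the same list, had a log2 change of 0.97 in shMAFK, which did not pass (limma, adjusted p = 0.174). These are RNA levels, and NRF2 protein was not measured here.

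Of 76 other pathway genes in the table, 3 passed in shSMARCA4, where 4.18% of all rows passed, and none in the other knockdowns, where at most 0.0271% did. Of 34 further NRF2 targets 23 were in the table and none passed in any knockdown. At an unadjusted p under 0.05 there were 3, 5, 2 and 2 in shSMARCA4, shMAFK, shE2F6 and shKDM1A, beside 16.3%, 8.77%, 5.09% and 11.5% of all rows. The median log2 change of the 23 targets was -0.04, -0.15, 0.05 and -0.01 in the same order. In shMAFK 5 of the 23 targets lay above 0 and 18 below it. Among those above was SLC7A11, the cystine importer, whose log2 change of 1.86 did not pass (limma, adjusted p = 0.297).

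Of 35 genes listed with glutathione and peroxide enzymes 32 were counted, and their median log2 change in shSMARCA4 was -0.18. TXNIP, which is not an enzyme, is among them. In shSMARCA4 1 of these genes rose, 1 fell and the rest did not pass. The unadjusted p was under 0.05 there for 10 of the 32 genes and for 16.3% of all rows. The number under 0.05 was 3 in shMAFK (8.77% of all rows), 4 in shE2F6 (5.09%) and 5 in shKDM1A (11.5%). GSTO1, a glutathione transferase of the omega class, stood at 2354 and 1530 in shSMARCA4 against 735 and 714 in shLUC, and it rose by 1.39 on the log2 scale (SE 0.21, limma adjusted p = 0.00976). TXNIP, which binds and inhibits thioredoxin, stood at 1323 and 1225 against 2296 and 3474, and it fell by 1.15 on the log2 scale (SE 0.22, limma adjusted p = 0.0224). TXNIP was also low in shE2F6, at 864 and 794, and that change of -1.77 did not pass (limma, adjusted p = 0.146).

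Of 12 other NADPH-producing enzymes 10 were in the table, and 1 passed in shSMARCA4. At an unadjusted p under 0.05 there were 5 of the 10 in shSMARCA4, 3 in shKDM1A and 1 each in shMAFK and shE2F6. Of all rows, 16.3%, 11.5%, 8.77% and 5.09% were under 0.05 in the same order. H6PD, the glucose-6-phosphate dehydrogenase of the endoplasmic reticulum, stood at 814 and 820 in shSMARCA4 against 482 and 450 in shLUC, and it rose by 0.81 on the log2 scale (SE 0.14, limma adjusted p = 0.0131). It also stood at 723 and 733 in shKDM1A and at 329 and 302 in shE2F6. Those log2 changes of 0.64 and -0.56 did not pass (limma, adjusted p = 0.182 and 0.641). The median of these 10 enzymes in shSMARCA4 was -0.30. The call of GSTO1 was lost without either shLUC library (adjusted p up to 0.0994). That of H6PD was lost without either library of shLUC or shSMARCA4 (up to 0.14), and that of TXNIP without shLUC replicate 2 or either shSMARCA4 library (up to 0.187). Of 6 paralogs of the members 5 were in the table, and none passed in any knockdown, with 1, 0, 0 and 0 at an unadjusted p under 0.05.

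**Figure D4:**
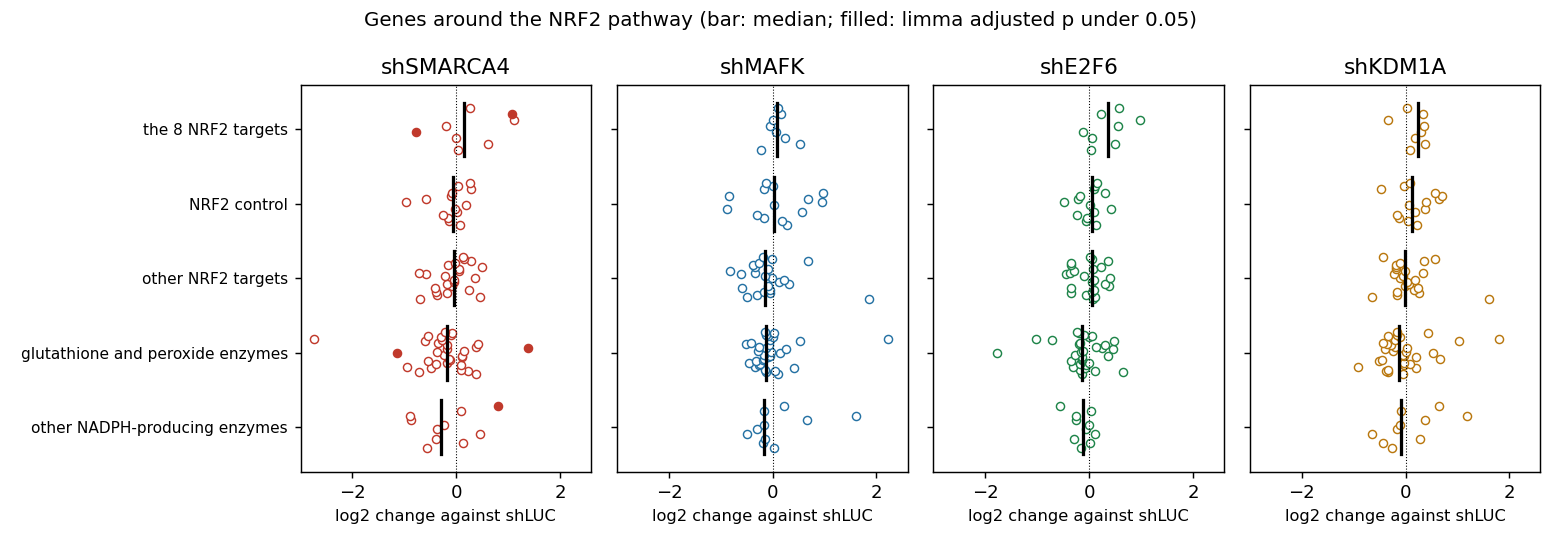
Log2 change against shLUC of the 8 members and of the genes of 4 lists around them, 1 panel per knockdown, on the log2(value + 1) scale, with 1 point per gene, a bar at each median and filled points for limma adjusted p under 0.05. Beside PIR and SRXN1, the filled points are GSTO1 at 1.39, TXNIP at -1.15 and H6PD at 0.81 in shSMARCA4, and the medians of the 4 lists lie between -0.30 and 0.13.

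The likeness of 2 genes was taken as the root mean square difference of their log2 values over the 10 libraries, each gene centred on its own mean, so that a smaller value is more alike. The closest pair of members was GCLC and TXNRD1 (0.24) and the farthest HMOX1 and SRXN1 (0.96), with PIR and SRXN1 at 0.71. The measure is not scaled by spread, so genes that vary little come out close. GCLC and TXNRD1 themselves varied by 0.15 and 0.20. TXNRD1 ranked 3721 among genes in likeness to GCLC, and GCLC ranked 2387 in likeness to TXNRD1. Ranked by likeness to a member, no other member came nearer than ME1 to HMOX1, at rank 580. Nearest to PIR were RYR2 (0.116) and LRRC20 (0.133), beside a spread of 0.39 for PIR itself. Nearest to HMOX1 were PDLIM5 (0.261) and ZNF335 (0.266), beside a spread of 0.63. SRXN1 was nearest to the overlapping AL121758.1 (0.025) and next to GPR176 (0.098). Nearest to NQO1 were RBM44 (0.107) and SLC7A7 (0.111), and nearest to GCLM were NBPF26 (0.095) and TRABD2A (0.101). GCDH (0.06) and BACE2 (0.063) were nearest to GCLC, which itself varied by 0.15. INTS12 (0.083) and PSMD7 (0.087) were nearest to TXNRD1, and AP003392.4 (0.113) and UGT8 (0.117) to ME1.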

How the data were processed

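RNA of 10 libraries was sequenced. The deposited values are scores: whole-number normalized tag counts that the authors scaled to a shared distribution by a step not given in the sources used here. The submitters' processing notes name STAR, STARsolo and hg38 without roles. Values entered as log2(value + 1), so a fold change is slightly understated for low genes. All 10 libraries were fitted in limma 3.58.1 (R 4.3.3) with empirical Bayes moderation and a mean-variance trend, 2 libraries per group, and Benjamini-Hochberg adjustment over the 14785 rows of each contrast, with a threshold of 0.05. A filter at a mean of 10 removed no row (lowest mean 19.3). Contrasts were each knockdown against shLUC, an F test across the 4 knockdowns and their pairs. The fit was tested on simulated data. Tables and plots used Python 3.11.15, pandas 2.3.3 and matplotlib 3.10.9. Members and lists were chosen with earlier results of these data known. Named genes were the members, NFE2L2, KEAP1, BACH1, MAFG and MAFK, the list genes that passed, and the 2 rows nearest in pattern to each member. SLC7A11 and SQSTM1 were chosen after their values were seen. The p-values rest on the spread between replicate libraries, pooled over all groups and moderated, so a gene has the same SE in each knockdown. That spread was uneven. Over all rows the replicate SD (log2) was 0.53 in shKDM1A, 0.33 in shSMARCA4, 0.31 in shE2F6, 0.27 in shLUC and 0.26 in shMAFK. 1 symbol on 2 rows (SOD2) was left out of list counts. Genes overlapping a member on the other strand may share its reads, since strand use in counting is not given.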

Additional observations from a re-analysis of the deposited data

How the results depend on the processing

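The rise of PIR and the fall of SRXN1 in shSMARCA4 passed in 9 of 9 alternatives other than leaving out 1 library, and in 8 and 4 of the 10 that left out 1 library. Of the 32 member changes against shLUC none changed sign in the former and 10 did in the latter, none of them called. Their lowest and highest log2 changes were -0.02 and 0.08, -0.09 and 0.27, and -0.09 and 0.15 for GCLC in shE2F6, shKDM1A and shSMARCA4, -0.77 and 0.10, and -0.35 and 0.35 for HMOX1 in shKDM1A and shMAFK, -0.21 and 0.26 for ME1 in shKDM1A, -0.29 and 0.19 for NQO1 in shMAFK, -0.01 and 0.14 for SRXN1 in shMAFK, and -0.17 and 0.27, and -0.32 and 0.31 for TXNRD1 in shE2F6 and shSMARCA4. Leaving out 1 library gave 0 to 3 members changed in shSMARCA4 (2 with all libraries) and 0 to 4 by the F test (3 with all).

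Counts over all rows moved more, and the cause was not tested. In shSMARCA4 618 rows passed, 1306 with group weights, 1162 without both shKDM1A libraries and 89 (shLUC replicate 2) to 1159 (shKDM1A replicate 2) without 1 library. In shMAFK 2 passed, 487 with group weights, 5 with no trend, 32 with 2 groups only, 1 with a replicate block, 34 without both shKDM1A libraries and 0 to 37 without 1 library. In shE2F6 0 passed, against 752 at an unadjusted p under 0.05, 21 with group weights, 1 with 2 groups only, 5 without both shKDM1A libraries and 0 to 5 without 1 library. In shKDM1A 4 passed, 2 with group weights, 9 with no trend, 1 with 2 groups only and 1 to 3235 without 1 library (3235 without shKDM1A replicate 2, where no member passed). Deviations of same-numbered libraries correlated at -0.05 to 0.337 over 10 pairs of groups, 2 of them over 0.1. The highest, 0.337, was between shSMARCA4 and shE2F6, whose same-numbered libraries thus deviated together in part. Whether a shared step lay behind it was not tested. With the replicate block, 2 members passed in shSMARCA4, and NQO1, SRXN1 and PIR passed the F test. With no trend, SRXN1 and PIR passed it. With group weights SRXN1 differed between shSMARCA4 and shE2F6 (limma, adjusted p = 0.0301; 0.0498 with the replicate block) and HMOX1 between shSMARCA4 and shMAFK (0.0134; 0.0485 with gene rows only). Group weights removed the differences of PIR (limma, adjusted p = 0.258), SRXN1 (0.0657) and HMOX1 (0.15) between shSMARCA4 and shKDM1A. The alternatives for pairs of knockdowns, AL121758.1, GSTO1, TXNIP, H6PD and the other pathway genes were chosen after seeing the data. The 3 other pathway genes called in shSMARCA4 became 0 without shLUC replicate 2, 1 without either shSMARCA4 library, and 5 with group weights or without the shKDM1A libraries. Such genes were also called in shMAFK (4 with group weights, 2 without shLUC replicate 2), in shKDM1A (12 without its replicate 2, 1 without shLUC replicate 2) and in shE2F6 (1 with group weights or without shKDM1A libraries). With depth unknown and 2 libraries per group, a change that did not pass is not shown to be absent.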
